A study of Mus musculus with 8 samples.

Results

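The VEGF and angiopoietin system was followed through 10 genes in the whole pregnant uterus of the mouse. They were chosen by name, by looking up the Ensembl identifiers of Vegfa, Vegfc, Pgf, Flt1, Kdr, Flt4, Nrp1, Angpt1, Angpt2 and Tek in the GENCODE M21 annotation, and all 10 were among the 49585 genes counted. Tissue came from 8-week-old Foxp3DTR females bearing allogeneic litters by BALB/c males, and it was taken at embryonic day 8 (E8). In these mice the receptor for diphtheria toxin is made by cells that express Foxp3, the transcription factor that defines regulatory T cells, and the toxin kills those cells. The DT group was 4 females (replicates 1, 3, 4 and 5) injected intraperitoneally with 1 µg of diphtheria toxin at E1, E3, E5 and E7. The PBS group was 4 females (replicates 1, 2, 4 and 6) of the same line, mated in the same way and injected with PBS on those days, so both groups carry the receptor allele. The whole uterus was taken with the fetal tissues inside it, and 1 library was read as 1 female. The labels give a loss of 85% of regulatory T cells for this regimen, while Foxp3 itself did not separate the libraries. It was at 5.12, 5.10, 5.72 and 5.69 CPM (counts scaled to library size) in DT replicates 1, 3, 4 and 5, against 4.89, 4.36, 5.44 and 4.86 CPM in PBS replicates 1, 2, 4 and 6, so the log2 fold change was 0.15 ± 0.10 (SE; adjusted p = 0.595 by edgeR). The mean of Foxp3 in PBS-labelled libraries was 4.89 CPM. The T cell receptor genes Cd3e, Cd3g, Cd3d and Trac were at 0.265, 0.467, 0.173 and 0.707 CPM there. Which cells the Foxp3 reads came from was not tested, so its level is not read as a measure of the depletion. The groups are called DT-labelled and PBS-labelled libraries after their labels, and values below run in the same replicate order.

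Vascular endothelial growth factors are secreted ligands of receptor tyrosine kinases on endothelial cells. Vegfa acts through Kdr (VEGFR2), the main signalling receptor for vessel growth, while Flt1 (VEGFR1) binds Vegfa tightly and signals weakly, and a soluble form of it acts as a trap. Pgf, placental growth factor, binds Flt1 but not Kdr, and Vegfc binds Flt4 (VEGFR3), the receptor of lymphatic vessel growth. Nrp1 is a co-receptor for VEGF and for class 3 semaphorins. The angiopoietins act on Tek (Tie2): Angpt1 is an agonist that stabilises vessels, and Angpt2, made largely by endothelial cells, opposes it or acts weakly depending on the setting. In the mouse uterus this system serves the growth of the vascular bed of the decidua, the lining that the uterus builds around each implanted embryo.

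Of the 10 genes, 0 passed the test between DT-labelled and PBS-labelled libraries. All 10 passed the filter on low counts. Their adjusted p-values, from edgeR's quasi-likelihood test over all 22693 genes tested, ran from 0.557 to 0.950. DESeq2 and limma voom also called 0 of the 10. At an unadjusted p under 0.05 edgeR counted 1 of the 10, Kdr, and DESeq2 and voom 2 each. Among all genes tested, 0.326% were called by edgeR (73 higher and 1 lower in DT-labelled libraries), 1.32% by DESeq2 and 0.229% by voom, and 8.70% had an unadjusted edgeR p under 0.05. In 0 of the 10 did the DT-labelled and PBS-labelled values stand apart without overlap, against 5.06% of all genes tested. The fold change was positive for 4 members and negative for 6, with a median log2 value of -0.14 beside 0.01 for all genes tested.

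**Figure D1:**
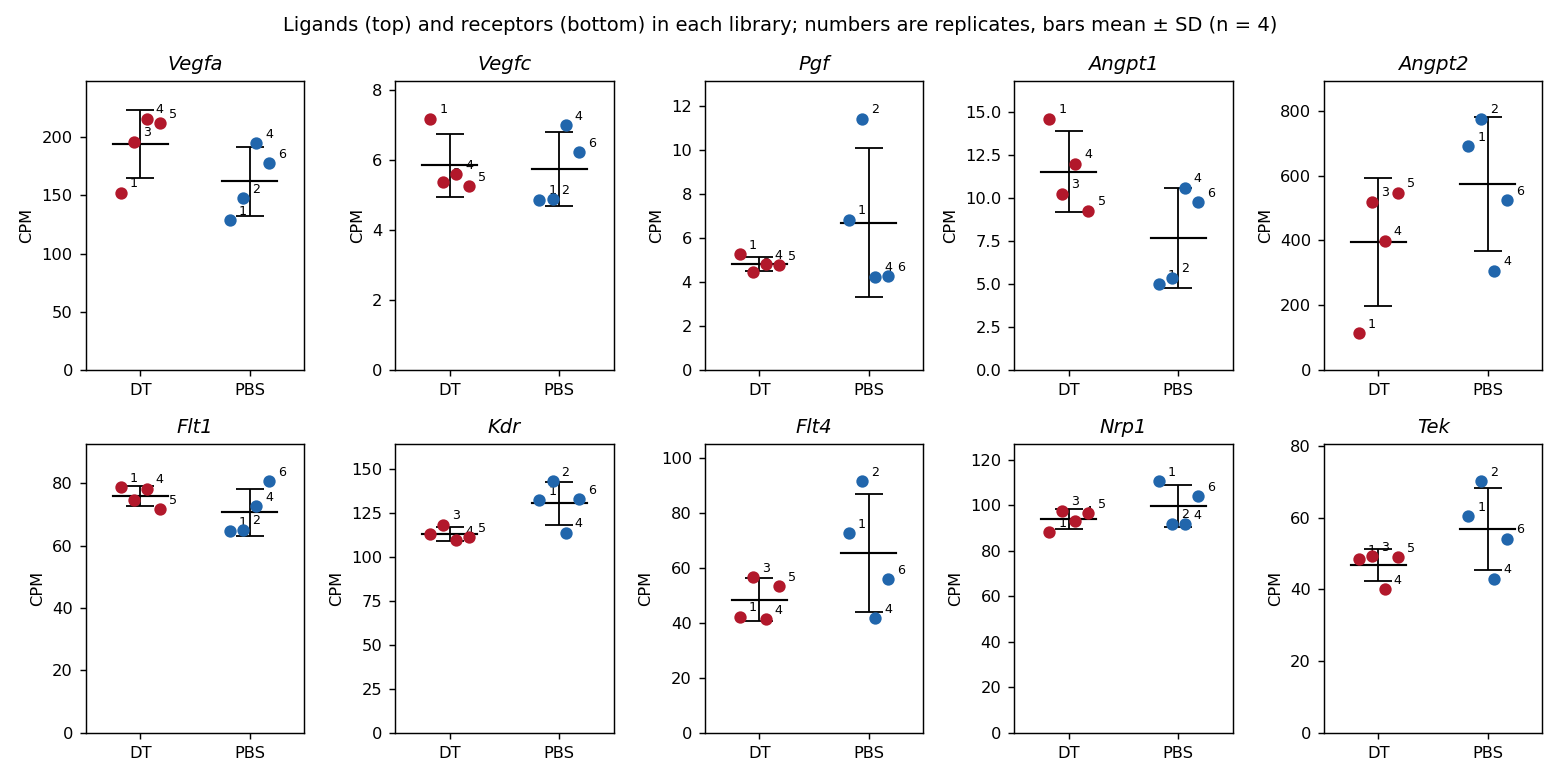
CPM of each ligand (top row) and receptor (bottom row) in each library, with DT to the left of PBS; points are libraries, numbers are replicates and bars are the mean ± SD of 4 libraries. The groups overlap in every panel, and the widest spread is that of Angpt2, from 114 to 775 CPM.

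The libraries differed in their levels of embryonic tissue markers, which stand beside most of the values that follow. The summed level of 16 trophoblast marker genes was 38.6, 165, 85.2 and 149 CPM in the DT-labelled libraries, against 522, 1174, 56.0 and 132 CPM in the PBS-labelled libraries. The same order held at the ends for yolk sac endoderm markers. These summed to 39.6 to 64.1 CPM in DT-labelled libraries and to 49.8 to 267 CPM in PBS-labelled libraries. Sox17, also used below as an endothelial marker, made up 25.7 of the 39.6 CPM in DT replicate 1. In PBS replicate 2 it made up 36.7 of the 267 CPM. PBS replicates 1 and 2 thus stood apart with the highest levels of embryonic markers, and DT replicate 1 had the lowest. Embryonic globins were at 40.9 and 308 CPM in PBS replicates 1 and 2, and at 0.495 CPM or less in each of the other 6 libraries. Of the trophoblast markers 15 were tested and 0 called by edgeR, with 5 at an unadjusted p under 0.05, all 15 fold changes negative and a median of -2.32. DESeq2 called 1 of them lower, and voom called 0. The suffix in the sample titles, whose meaning the labels do not state, is shared by PBS replicates 1 and 2, by PBS replicates 4 and 6, by DT replicates 1 and 3, and by DT replicates 4 and 5, so it cannot be told apart from treatment. In tissue of this kind a lower value can come from fewer cells of a type or from less RNA per cell, and these cannot be told apart.

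The tissue carried the markers of blood vessels in every library. Pecam1, the endothelial adhesion molecule PECAM-1, was at 167, 246, 195 and 254 CPM in DT-labelled libraries, against 369, 458, 177 and 272 CPM in PBS-labelled libraries. The 20 endothelial markers summed to between 1179 and 1600 CPM in DT-labelled libraries and between 1195 and 2139 CPM in PBS-labelled libraries, so the ranges overlapped. EdgeR called 0 of the 20, as did DESeq2 and voom, with 0 below an unadjusted edgeR p of 0.05. Their median log2 fold change was -0.02, with 8 positive and 12 negative. Pecam1, at -0.56, had the most negative value of the 20. Lymphatic endothelial markers (5 genes) and pericyte and vascular smooth muscle markers (10 genes) likewise gave 0 calls by edgeR, DESeq2 and voom, with 0 at an unadjusted edgeR p under 0.05. Markers of uterine NK cells, lymphocytes of the decidua that secrete vascular growth factors, summed to between 298 and 918 CPM in DT-labelled libraries and between 450 and 2346 CPM in PBS-labelled libraries, highest in PBS replicates 1 and 2. The granzymes and perforin make up most of that sum. EdgeR called 0 of these 14 genes, DESeq2 called 1 higher and voom 0, and the median log2 fold change was -0.74. At an unadjusted edgeR p under 0.05 there were 3 with positive and 3 with negative fold changes. In 3 of the 14 (Klrk1, Klrd1 and Tbx21) all DT-labelled values lay above all PBS-labelled values, against 5.06% of all genes tested in either direction.

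The levels of the members were ordered per length of exon, in RPKM (CPM divided by exon length in kilobases), as the mean over all 8 libraries. Exon length merges the exons of all annotated transcripts of a gene, and the order between genes depends on that choice. Angpt2 came first at 131 RPKM, with a range of 30.8 to 210, and Vegfa next at 41.5 RPKM, with a range of 30.0 to 50.3. Angpt2 was above Vegfa in 7 of 8 libraries, the exception being DT replicate 1. The receptors followed, with Kdr at 13.5, Tek at 10.98, Nrp1 at 9.88, Flt4 at 6.92 and Flt1 at 5.43 RPKM. Vegfc at 2.37, Pgf at 1.98 and Angpt1 at 1.84 RPKM were the lowest. Only 2 pairs of neighbours in this order had ranges that did not overlap: Vegfa stood above Kdr, and Flt1 above Vegfc, in 8 of 8 libraries each. Kdr was also above Tek in 8 of 8 libraries, although their ranges overlapped. Flt4 was above Flt1 in 5 of 8 libraries and Pgf above Angpt1 in 2 of 8, so the order within those pairs was not fixed.

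The proximal promoters of Kdr, Tek and Flt1 are shown because these receptors, known from endothelial cells, are compared below: over the 8 libraries Kdr and Tek had r = 0.919, while Flt1 had r = -0.539 with Kdr and -0.674 with Tek. The sequences are the 250 bases before the RefSeq gene start on GRCm38.p6, written 5′ to 3′ on the gene's strand. Capitals mark GGAAG or its complement CTTCC, a longer form of GGAA, the core that ETS factors bind. These factors are known regulators of endothelial genes. Each window also holds GGAA or its complement without that G, which is left unmarked and was not counted. Kdr lies on the minus strand, with its window at chr5:75978456-75978705. Tek lies on the plus strand, with its window at chr4:94739039-94739288, and Flt1 on the minus strand, with its window at chr5:147726012-147726261.
Kdr: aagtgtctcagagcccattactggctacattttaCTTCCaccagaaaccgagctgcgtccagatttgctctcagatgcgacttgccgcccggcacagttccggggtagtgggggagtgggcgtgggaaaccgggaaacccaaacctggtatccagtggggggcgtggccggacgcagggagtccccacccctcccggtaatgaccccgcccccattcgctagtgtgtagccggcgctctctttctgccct
Tek: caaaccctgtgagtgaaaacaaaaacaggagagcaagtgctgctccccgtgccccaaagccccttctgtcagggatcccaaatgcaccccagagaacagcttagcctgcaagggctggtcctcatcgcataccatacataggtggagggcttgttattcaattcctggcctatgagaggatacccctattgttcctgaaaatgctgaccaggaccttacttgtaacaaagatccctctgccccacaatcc
Flt1: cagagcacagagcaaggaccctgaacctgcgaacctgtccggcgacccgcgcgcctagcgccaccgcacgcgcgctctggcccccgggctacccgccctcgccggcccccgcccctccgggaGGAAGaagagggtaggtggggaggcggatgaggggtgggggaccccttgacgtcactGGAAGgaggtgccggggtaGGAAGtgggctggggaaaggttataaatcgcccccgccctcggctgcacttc
On either strand, GGAAG was found 1 time in the Kdr window, 0 times in the Tek window and 3 times in the Flt1 window. At least 1 match is present in 64.1% of 32851 promoter windows of the same length. The GC box GGGCGG, found in 32.7% of windows, occurred 2 times for Kdr, 0 times for Tek and 3 times for Flt1. The hypoxia-inducible factor core, ACGTG or GCGTG, found in 38.6% of windows, occurred 2 times for Kdr, 0 times for Tek and 1 time for Flt1. TATAAA, found in 12.4% of windows, occurred 1 time for Flt1 and 0 times for Kdr and Tek. None of these motifs is contained in another, though matches may share bases, and a match is a run of letters and not a bound site. RefSeq windows matched 8 of the 10 members by symbol, with 10 starts among them.

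Kdr (ENSMUSG00000062960; chromosome 5, 75932827 to 75978458 on the minus strand, GRCm38) had the smallest p-value of the 10. It was at 113, 119, 110 and 111 CPM in DT-labelled libraries, against 132, 143, 114 and 133 CPM in PBS-labelled libraries. PBS replicate 4 lay inside the range of the DT-labelled libraries, and the other PBS-labelled libraries lay above it. The mean was 113 ± 3.85 CPM in DT-labelled libraries and 130 ± 12.2 CPM in PBS-labelled libraries (SD, n = 4 each). The log2 fold change was -0.21 ± 0.08 (SE), with a 95% interval from -0.39 to -0.03 that is not adjusted for the number of genes, an unadjusted edgeR p of 0.0298 and an adjusted p of 0.557. Leaving out PBS replicates 1 and 2 gave -0.13, and leaving out DT replicate 1 as well gave -0.12.

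Flt1 (ENSMUSG00000029648; chromosome 5, 147561604 to 147726011, minus strand) was at 78.8, 74.6, 78.3 and 71.7 CPM in DT-labelled libraries, against 64.6, 65.0, 72.5 and 80.6 CPM in PBS-labelled libraries. It was lowest in PBS replicates 1 and 2 and highest in PBS replicate 6, so the PBS-labelled values reached past the DT-labelled ones at both ends. The mean was 75.9 ± 3.31 CPM in DT-labelled libraries and 70.7 ± 7.53 CPM in PBS-labelled libraries (SD, n = 4 each), and the log2 fold change was 0.10 ± 0.08 (SE; interval -0.09 to 0.29; adjusted p = 0.626 by edgeR). Without PBS replicates 1 and 2 the value was -0.02, and without DT replicate 1 as well -0.03. Counts per gene do not separate the membrane-bound from the soluble transcript.

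Tek (ENSMUSG00000006386; chromosome 4, 94739289 to 94874976, plus strand) was at 48.4, 49.2, 40.0 and 48.9 CPM in DT-labelled libraries, against 60.4, 70.05, 42.9 and 54.1 CPM in PBS-labelled libraries. PBS replicate 4 again fell within the DT-labelled range. The mean was 46.6 ± 4.46 CPM in DT-labelled libraries and 56.9 ± 11.4 CPM in PBS-labelled libraries (SD, n = 4 each), with a log2 fold change of -0.29 ± 0.15 (SE; interval -0.62 to 0.05; adjusted p = 0.571 by edgeR). Without PBS replicates 1 and 2 it was -0.06, and -0.07 without DT replicate 1 too.

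Flt4 (ENSMUSG00000020357; chromosome 11, 49609263 to 49652739, plus strand) varied the most among the receptors, 2.21-fold over the 8 libraries. It was at 42.3, 56.8, 41.5 and 53.4 CPM in DT-labelled libraries, against 72.6, 91.5, 41.8 and 56.0 CPM in PBS-labelled libraries. The 2 highest values were those of PBS replicates 1 and 2, and PBS replicates 4 and 6 lay within the DT-labelled range. The mean was 48.5 ± 7.74 CPM in DT-labelled libraries and 65.5 ± 21.4 CPM in PBS-labelled libraries (SD, n = 4 each), and the log2 fold change was -0.43 ± 0.23 (SE; interval -0.97 to 0.10; adjusted p = 0.571 by edgeR). It was -0.02 without PBS replicates 1 and 2 and 0.05 without DT replicate 1 as well.

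Nrp1 (ENSMUSG00000025810; chromosome 8, 128358604 to 128503363, plus strand) was among the steadiest members, with a 1.25-fold range over the 8 libraries, as for Flt1. It was at 88.2, 97.6, 93.1 and 96.5 CPM in DT-labelled libraries, against 110, 91.8, 91.7 and 104 CPM in PBS-labelled libraries. PBS replicates 2 and 4 lay within the DT-labelled range. The log2 fold change was -0.08 ± 0.08 (SE; interval -0.26 to 0.10; adjusted p = 0.661 by edgeR), and 0.03 when libraries were scaled by their totals alone, which moves the median of all genes by about the same amount, to 0.12.

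Angpt2 (ENSMUSG00000031465; chromosome 8, 18690263 to 18741562, minus strand) was the most variable member, 6.82-fold over the 8 libraries. It was at 114, 519, 399 and 547 CPM in DT-labelled libraries, against 691, 775, 307 and 524 CPM in PBS-labelled libraries. DT replicate 1 was far below every other library, and PBS replicates 1 and 2 were above all others. The mean was 395 ± 198 CPM in DT-labelled libraries and 574 ± 206 CPM in PBS-labelled libraries (SD, n = 4 each). With a log2 fold change of -0.54 ± 0.47 (SE; interval -1.62 to 0.54; adjusted p = 0.642 by edgeR), the interval held a rise as large as the fall that was measured. It was -0.23 without DT replicate 1, -0.08 without PBS replicates 1 and 2, and 0.23 without all 3 libraries.

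Angpt1 (ENSMUSG00000022309; chromosome 15, 42424723 to 42676977, minus strand) had the largest positive fold change of the members. It was at 14.6, 10.2, 11.97 and 9.25 CPM in DT-labelled libraries, against 4.998, 5.36, 10.6 and 9.76 CPM in PBS-labelled libraries. Here PBS replicates 1 and 2 were the lowest of the 8, DT replicate 1 was the highest, and PBS replicates 4 and 6 lay within the DT-labelled range. The mean was 11.5 ± 2.34 CPM in DT-labelled libraries and 7.68 ± 2.91 CPM in PBS-labelled libraries (SD, n = 4 each), and the log2 fold change was 0.58 ± 0.28 (SE; interval -0.05 to 1.22; adjusted p = 0.571 by edgeR). It was 0.18 without PBS replicates 1 and 2 and 0.04 without DT replicate 1 as well. Of its exon bases, 14.2% are also exon of the gene Gm17473 on the opposite strand, and since the strand used in counting is not given, reads there could belong to either.

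Vegfa (ENSMUSG00000023951; chromosome 17, 46016993 to 46032369, minus strand) was at 152, 196, 215 and 212 CPM in DT-labelled libraries, against 129, 147, 194 and 177 CPM in PBS-labelled libraries. DT replicate 1 was the lowest of its group and fell between the PBS-labelled values. The mean was 194 ± 29.1 CPM in DT-labelled libraries and 162 ± 29.5 CPM in PBS-labelled libraries (SD, n = 4 each), and the log2 fold change was 0.26 ± 0.16 (SE; interval -0.10 to 0.62; adjusted p = 0.573 by edgeR). It was 0.06 without PBS replicates 1 and 2, and 0.16 without DT replicate 1 too.

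Vegfc (ENSMUSG00000031520; chromosome 8, 54077606 to 54187096, plus strand) had the fold change nearest to 0. It was at 7.19, 5.38, 5.60 and 5.26 CPM in DT-labelled libraries, against 4.88, 4.89, 7.01 and 6.23 CPM in PBS-labelled libraries. The highest value was that of DT replicate 1 and the lowest were those of PBS replicates 1 and 2, the reverse of the ends for Angpt2. The log2 fold change was 0.03 ± 0.16 (SE; interval -0.34 to 0.40; adjusted p = 0.950 by edgeR). It was -0.18 without PBS replicates 1 and 2 and -0.29 without DT replicate 1 as well.

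Pgf (ENSMUSG00000004791; chromosome 12, 85166635 to 85177790, minus strand), a factor made by trophoblast as well as by maternal cells, was at 5.27, 4.46, 4.81 and 4.78 CPM in DT-labelled libraries, against 6.84, 11.4, 4.24 and 4.27 CPM in PBS-labelled libraries. It was highest in PBS replicates 1 and 2, and PBS replicates 4 and 6 were below all 4 DT-labelled libraries. The mean was 4.83 ± 0.334 CPM in DT-labelled libraries and 6.69 ± 3.38 CPM in PBS-labelled libraries (SD, n = 4 each), and the log2 fold change was -0.47 ± 0.31 (SE; interval -1.18 to 0.24; adjusted p = 0.584 by edgeR). The value was -0.08 without PBS replicate 2, 0.18 without PBS replicates 1 and 2, and 0.14 without DT replicate 1 too.

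**Figure D2:**
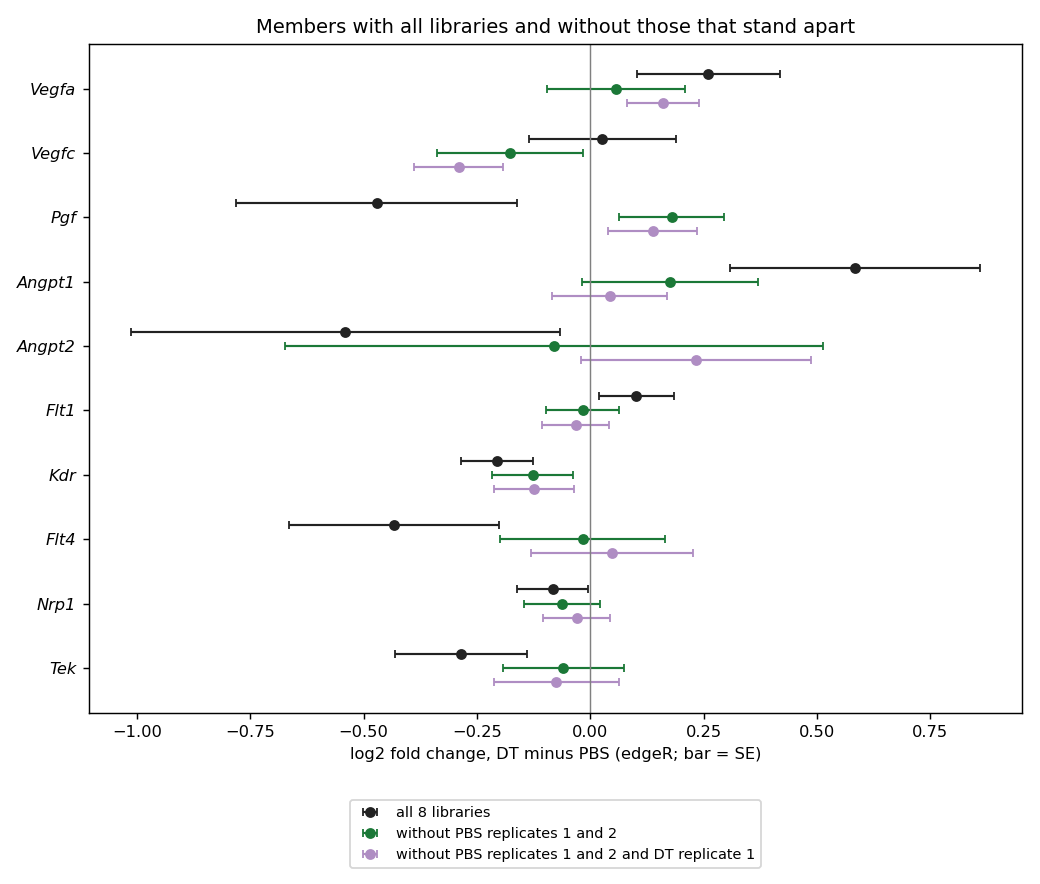
Log2 fold change (DT minus PBS, edgeR) of each member with all 8 libraries, without PBS replicates 1 and 2, and without DT replicate 1 as well; bars are ± SE. Angpt1 is at 0.58, 0.18 and 0.04 in the 3 fits and Flt4 at -0.43, -0.02 and 0.05, while Kdr is at -0.21, -0.13 and -0.12.

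Leaving out those libraries was chosen after the data were seen. EdgeR called 0 of the 10 members in both of these fits. Without PBS replicates 1 and 2, 0 members had an unadjusted p under 0.05 and 1 gene of all those tested was called. Without DT replicate 1 as well, 1 member had an unadjusted p under 0.05 and 62 genes were called. In the 3 fits the median log2 fold change of the members was -0.14, -0.04 and 0.01.

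Ratios of read counts within a library set each ligand or receptor against its partner and do not depend on how libraries are scaled. Flt1 relative to Kdr, the weakly signalling receptor over the main one, was 0.697, 0.630, 0.714 and 0.645 in DT-labelled libraries, against 0.488, 0.455, 0.638 and 0.607 in PBS-labelled libraries. DT replicate 3 fell below PBS replicate 4, so the groups overlapped narrowly. The mean log2 ratio was 0.31 higher in DT-labelled libraries (two-sided exact permutation test, p = 0.0571, adjusted over 6 ratios 0.343), where the smallest p that 4 against 4 libraries allow is 0.0286. Without PBS replicates 1 and 2 the difference was 0.11.

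The ratio of Angpt2 to Angpt1, the opposing ligands of Tek, was 7.79, 50.7, 33.4 and 59.1 in DT-labelled libraries, against 138, 144, 29.0 and 53.6 in PBS-labelled libraries. It thus varied more than any single member, lowest in DT replicate 1 and highest in PBS replicates 1 and 2. The mean log2 ratio differed by -1.33 (exact permutation test, p = 0.229, adjusted 0.514). Without DT replicate 1 it was -0.68, and without those 3 libraries 0.24.

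Pgf relative to Vegfa was 0.0346, 0.0228, 0.0224 and 0.0226 in DT-labelled libraries, against 0.0532, 0.0777, 0.0218 and 0.0241 in PBS-labelled libraries. Apart from DT replicate 1 and PBS replicates 1 and 2, the libraries lay between 0.0218 and 0.0241. The mean log2 difference was -0.61 (exact permutation test, p = 0.257, adjusted 0.514), and it was -0.27 without PBS replicate 2. Differences for Vegfc over Vegfa (-0.23), Flt4 over Kdr (-0.19) and Tek over Kdr (-0.07) had exact permutation p-values of 0.343, 0.429 and 0.543, with 0 of the 6 ratios past the threshold. Without DT replicate 1 Vegfc over Vegfa differed by -0.45 (exact permutation p = 0.0286, adjusted 0.171). Flt4 over Kdr differed by -0.05 without PBS replicate 2 and by -0.32 without PBS replicate 4, and Tek over Kdr lay between -0.13 and -0.01 with 1 library left out.

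**Figure D3:**
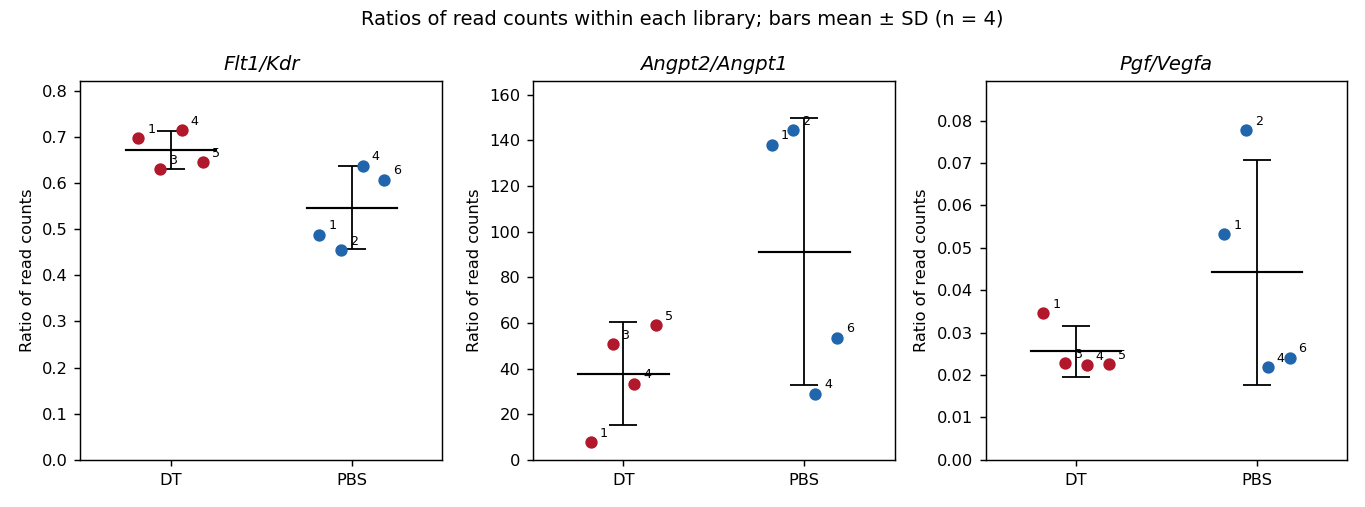
Ratios of read counts in each library for Flt1 over Kdr, Angpt2 over Angpt1 and Pgf over Vegfa, with DT to the left of PBS; points are libraries, numbers are replicates and bars are the mean ± SD of 4 libraries. Flt1 over Kdr runs from 0.630 to 0.714 in DT-labelled libraries and from 0.455 to 0.638 in PBS-labelled libraries, and PBS replicates 1 and 2 stand at 138 and 144 for Angpt2 over Angpt1.

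To set the vessel genes against the amount of endothelial RNA, the mean log2 CPM of the 20 endothelial markers was subtracted from each in every library. Relative to these markers Kdr stood at 1.60, 1.43, 1.49 and 1.36 log2 units in DT-labelled libraries, against 1.52, 1.61, 1.62 and 1.58 in PBS-labelled libraries. The PBS-labelled values were close together and overlapped with DT replicate 1 alone. The difference was -0.12 (exact permutation test, p = 0.0857, adjusted over 6 genes 0.386). With Pecam1, Cdh5 and Cldn5 alone as the scale it was 0.27, so its direction rests on the markers used.

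Flt1 differed by 0.19, Flt4 by -0.30, Tek by -0.18 and Nrp1 by 0.00 log2 units relative to the 20 markers, with exact permutation p-values of 0.257, 0.200, 0.143 and 0.943. Flt4 and Tek also turned positive, at 0.08 and 0.20, on the scale of Pecam1, Cdh5 and Cldn5. Angpt2 relative to the markers was 1.60, 3.56, 3.36 and 3.65 log2 units in DT-labelled libraries, against 3.91, 4.05, 3.05 and 3.56 in PBS-labelled libraries. DT replicate 1 was again far below the rest, and the difference of -0.60 had an exact permutation p of 0.343. Without DT replicate 1 it was -0.12.

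The levels of the members were set against the mean log2 CPM of 5 marker lists, which makes 50 relations. Over all 8 libraries 28 of them had an adjusted permutation p for Pearson's r under 0.05. PBS replicates 1 and 2 stood apart on the trophoblast, yolk sac and uterine NK cell markers, so the relations are described over the other 6 libraries, a choice made after the data were seen. Over those 6, 0 of 50 passed the adjusted threshold for r or for rho, with 18 at an unadjusted exact permutation p for r under 0.05. The smallest exact permutation p that 6 libraries allow is 0.00139 for r and 0.00278 for rho. Over 50 relations these adjust to 0.0694 and 0.139 on their own, so no single relation could pass alone. The 0 is therefore not comparable with the 28 over 8 libraries. All points share the library's scaling and its mix of tissues, and the part of that mix in each relation was not tested.

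Angpt2 had the highest single value of the 50. With decidual stroma markers r was 0.9965 (exact permutation adjusted p = 0.0926; rho = 0.943, adjusted p = 0.139; n = 6), and 0.936 without the 2 farthest of the 6, DT replicate 1 and PBS replicate 4. Over all 8 libraries that r was 0.92 (rho = 0.595, permutation adjusted p = 0.213). It was 0.062 when DT replicate 1 and PBS replicate 4 were left out of the 8 and PBS replicates 1 and 2 were kept. The value of r thus depended on which libraries were included. With uterine NK cell markers r was 0.913 (exact permutation adjusted p = 0.0694; rho = 1.00, adjusted p = 0.139; n = 6), so that the 6 libraries stood in the same order on both, and r was 0.986 without those 2. With trophoblast markers r was 0.933 (exact permutation adjusted p = 0.0926; rho = 0.8286, adjusted p = 0.194; n = 6) and 0.796 without them.

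Angpt1 had negative values with the same lists. For uterine NK cell markers r was -0.859 (exact permutation adjusted p = 0.104; rho = -0.943, adjusted p = 0.139; n = 6), and -0.990 without the 2 farthest. For trophoblast markers r was -0.807 (exact permutation adjusted p = 0.131; rho = -0.771, adjusted p = 0.257; n = 6) and -0.686 without them. Vegfc had r = -0.917 with trophoblast markers (exact permutation adjusted p = 0.104; rho = -0.886, adjusted p = 0.194; n = 6), and -0.555 without them.

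For 4 other members r with trophoblast markers was weaker or turned without PBS replicates 1 and 2. Over the other 6, r was 0.280 for Tek, 0.263 for Kdr and -0.247 for Flt1 (exact permutation adjusted p = 0.701, 0.720 and 0.706; rho = 0.600, 0.257 and -0.314; n = 6). Pgf, at its 2 highest levels in PBS replicates 1 and 2, had r = -0.410 among the rest (exact permutation adjusted p = 0.556; rho = -0.257; n = 6). Leaving out DT replicate 1 and PBS replicate 4 as well gave 0.538 for Tek, 0.022 for Kdr, -0.738 for Flt1 and -0.185 for Pgf. With only DT replicate 1 and PBS replicate 2 left out of the 8, r was 0.816, 0.578, -0.674 and 0.870 in that order. Flt4 kept r = 0.800 (exact permutation adjusted p = 0.172; rho = 0.714, adjusted p = 0.296; n = 6).

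**Figure D4:**
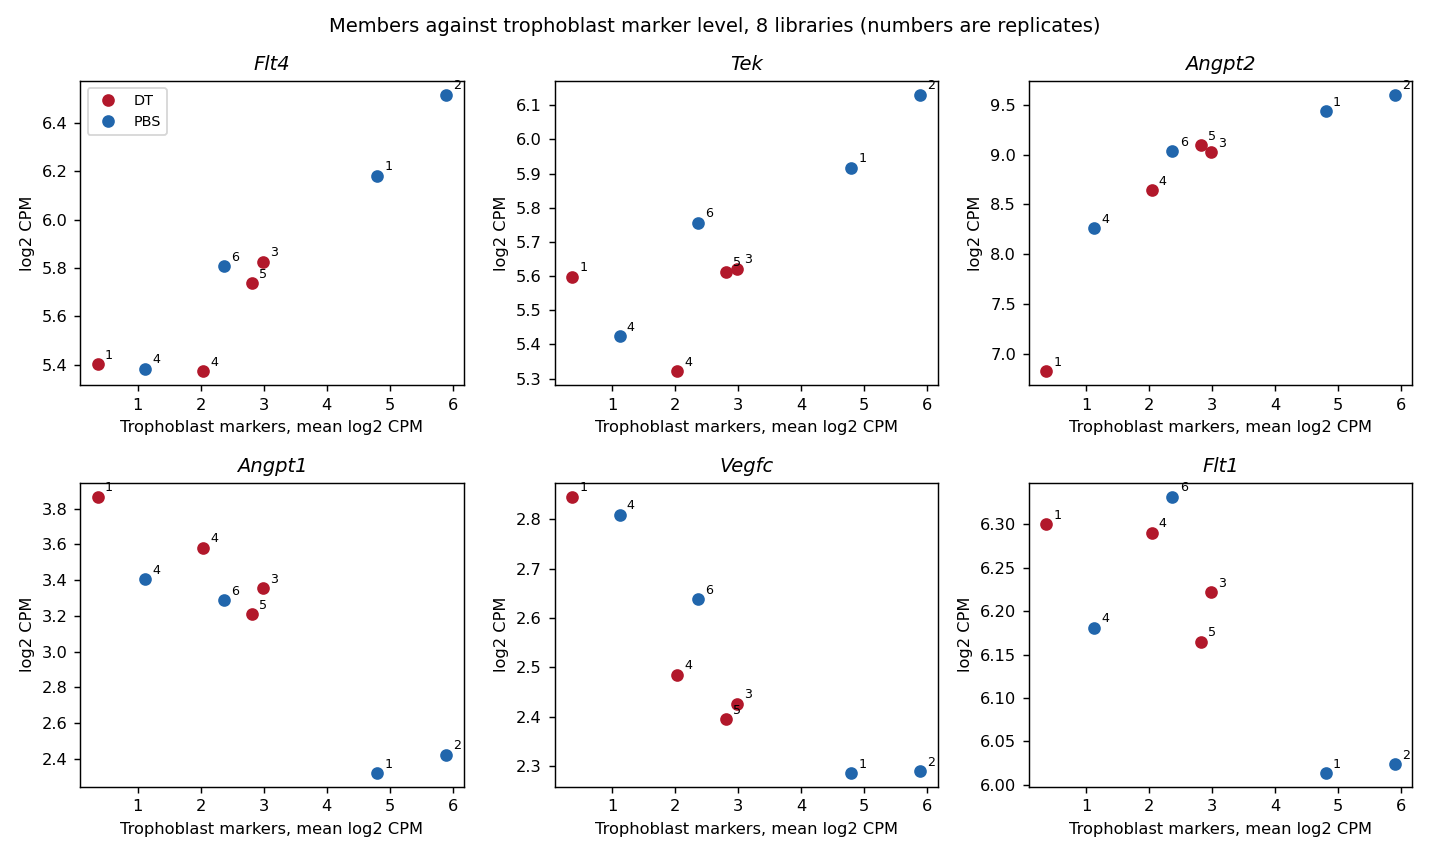
Log2 CPM of 6 members against the mean log2 CPM of the trophoblast markers in each of 8 libraries; red points are DT and blue points PBS, and numbers are replicates. PBS replicates 1 and 2 stand at the right of each panel; over the other 6 libraries r is 0.800 for Flt4, 0.280 for Tek, 0.933 for Angpt2, -0.807 for Angpt1, -0.917 for Vegfc and -0.247 for Flt1.

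With the endothelial markers the receptors spanned a wide range of r. Over the 6 libraries Flt4 had r = 0.971 (exact permutation adjusted p = 0.116; rho = 0.771, adjusted p = 0.257; n = 6) and 0.995 without the 2 farthest. Nrp1 had r = 0.887 (exact permutation adjusted p = 0.104; rho = 0.943, adjusted p = 0.139; n = 6) and 0.785 without them. Tek stood at 0.688, Kdr at 0.574 and Flt1 at -0.004 (exact permutation adjusted p = 0.292, 0.354 and 0.996; rho = 0.8286, 0.486 and 0.314; n = 6). Without the 2 farthest, r was 0.965, 0.651 and -0.215 in that order. None of these differences between receptors was tested.

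With yolk sac markers, r over the 6 libraries was 0.946 for Nrp1, 0.875 for Angpt2 and 0.857 for Flt4, and -0.857 for Angpt1 and -0.769 for Pgf, with 0 of the 10 past an adjusted p of 0.05. Sox17 is in both the endothelial and the yolk sac list.

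Between members, the highest correlation over the 8 libraries was that of Flt4 with Tek (r = 0.949), followed by Kdr with Tek (0.919), Angpt1 with Flt1 (0.899) and Kdr with Flt4 (0.887). The lowest were those of Angpt1 with Flt4 (-0.908) and Vegfc with Angpt2 (-0.855). Vegfa and its receptor Kdr had r = -0.692, and Angpt1 and Angpt2 had r = -0.788. These are descriptions over libraries that share scaling and tissue mix, PBS replicates 1 and 2 included.

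Among the 13697 genes whose mean log2 CPM was 0 or more, the 3 with the highest Pearson r over the 8 libraries were listed for each member. A high value is given by choosing the best of so many genes, and no test applies. For the ligands they were Cox7b (r = 0.967), Hmgn5 (0.963) and Rabggtb (0.959) for Vegfa, and Emp2 (0.986), Acta2 (0.985) and Fbxl22 (0.984) for Vegfc. Pgf varied most like Arnt2 (0.998), Rap2a (0.993) and Slc44a4 (0.987), and Angpt1 like Acin1 (0.994), Rasgef1a (0.994) and Zfp579 (0.993). Angpt2 was closest to S100a8 (0.999), Cyb561 (0.998) and AA467197 (0.998). S100a8 itself ranged 32.1-fold over the libraries, against 6.82-fold for Angpt2.

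For the receptors, the closest genes were Pde4c (r = 0.987), Car8 (0.979) and Pan2 (0.977) for Flt1. Kdr varied most like Senp5 (0.985), Gdpgp1 (0.979) and Appl1 (0.972), and Tek like Stk32a (0.991), Ahctf1 (0.989) and Bdp1 (0.988). Flt4 was closest to Jam2 (0.996), Pcdh1 (0.994) and Il2ra (0.990), and Nrp1 to Pxmp4 (0.959), Vps26b (0.944) and Sun2 (0.940). No gene stood among the 3 nearest of more than 1 member.

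The wider pathway was followed through 17 further genes, among them Vegfb, Vegfd, Nrp2, Tie1, the Tek phosphatase Ptprb and the factors that process Vegfc. EdgeR called 0 higher and 0 lower, 0 had an unadjusted p under 0.05, and DESeq2 and voom called 0. The fold change was positive for 8 and negative for 9, with a median log2 value of -0.08. The 4 with the smallest p-values all had negative fold changes. Ccbe1, a secreted protein needed for Vegfc to be processed and for lymphatic vessels to form, was at 18.5, 49.2, 32.6 and 49.8 CPM in DT-labelled libraries, against 65.0, 70.2, 35.8 and 63.1 CPM in PBS-labelled libraries. Its log2 fold change was -0.64 ± 0.33 (SE; adjusted p = 0.571 by edgeR), with DT replicate 1 the lowest of the 8 and PBS replicate 2 the highest, as for Angpt2.

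Angpt4, the mouse's other ligand of Tek, was at 55.0, 176, 123 and 176 CPM in DT-labelled libraries, against 227, 225, 135 and 196 CPM in PBS-labelled libraries. The log2 fold change was -0.56 ± 0.35 (SE; adjusted p = 0.577 by edgeR). Adamts14, a protease able to cleave Vegfc, had -0.44 ± 0.21 (SE) and Ptprb, the vascular phosphatase that acts on Tek, had -0.28 ± 0.16 (SE), each with an edgeR adjusted p of 0.571. All of these overlapped between the groups, with PBS replicate 4 within the range of the DT-labelled libraries.

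Genes that endothelial cells are known to switch on under VEGF were read as a further measure of the pathway. Of 13 tested, edgeR called 0, and so did DESeq2 and voom. An unadjusted edgeR p under 0.05 was found for 1 of the 13, against 8.70% of all genes tested. The median log2 fold change was 0.00, with 7 positive and 6 negative. The gene under 0.05 was Dll4, the Notch ligand of endothelial tip cells. It was at 16.4, 15.9, 15.1 and 16.4 CPM in DT-labelled libraries, against 19.3, 18.5, 16.7 and 18.7 CPM in PBS-labelled libraries. All 4 DT-labelled values lay below the 4 PBS-labelled values, which was so, in either direction, for 5.06% of all genes tested. Its log2 fold change was -0.19 ± 0.07 (SE), with an unadjusted edgeR p of 0.0198 and an adjusted p of 0.540.

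The next smallest p-values in that list were those of Cxcr4, the chemokine receptor (log2 fold change 0.18 ± 0.13), Nos3, the endothelial nitric oxide synthase (-0.15 ± 0.10), and Aplnr, the apelin receptor (0.16 ± 0.15). Their adjusted edgeR p-values were 0.596, 0.598 and 0.660. Esm1, a gene of tip cells, was at 2.59, 1.62, 2.26 and 1.33 CPM in DT-labelled libraries, against 1.59, 1.25, 4.80 and 2.83 CPM in PBS-labelled libraries, so its groups overlapped.

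Targets of the hypoxia-inducible factors, which also drive Vegfa, were counted beside it. EdgeR called 0 of 16, and DESeq2 and voom called 0. An unadjusted edgeR p under 0.05 was found for 1 of the 16, against 8.70% of all genes tested. Their median log2 fold change was 0.01, with 9 positive and 7 negative. Their summed level was 1357, 1824, 1681 and 1893 CPM in DT-labelled libraries, against 2021, 2111, 1624 and 1729 CPM in PBS-labelled libraries. This sum was thus highest in PBS replicates 1 and 2, where Vegfa was lowest. As a mean of log2 CPM, PBS replicate 2 was still highest at 5.76. PBS replicate 1, at 5.65, lay below DT replicates 3 and 5 at 5.67 and 5.74, so the order depends on the measure. The gene under 0.05 was Pfkfb3, a regulator of glycolysis, with a log2 fold change of 0.25 ± 0.10 (SE), an unadjusted edgeR p of 0.0337 and an adjusted p of 0.558. Single targets differed in their order: Slc2a1, the glucose transporter GLUT1, was lowest in PBS replicates 1 and 2 (184 and 181 CPM), while Ldha, a lactate dehydrogenase subunit, was highest there (419 and 481 CPM).

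For scale, immune genes were compared in the same libraries. EdgeR called 4 of 7 T cell markers and 2 of 7 macrophage markers higher in DT-labelled libraries, with all 7 and 4 of 7 at an unadjusted p under 0.05. Cd3e, a chain of the T cell receptor complex, was at 1.21, 1.14, 1.34 and 1.61 CPM in DT-labelled libraries, against 0.207, 0.165, 0.397 and 0.293 CPM in PBS-labelled libraries (log2 fold change 2.31 ± 0.28, SE; adjusted p = 0.0314 by edgeR). Its groups did not overlap, whereas those of all 10 vascular members did. The macrophage calls were lost, to 0 of 7, without PBS replicates 1 and 2 and when any 1 library other than DT replicate 1 was left out, with 3 to 4 of the 7 at an unadjusted p under 0.05. The T cell calls were lost, to 0 of 7, without PBS replicates 1 and 2, where Cd3e had a log2 fold change of 1.94 and an adjusted edgeR p of 0.369, and all 7 kept an unadjusted p under 0.05. They were also lost when any 1 of DT replicates 3, 4 and 5 or PBS replicates 1, 2 and 6 was left out, with Cd3e between 2.14 and 2.38 and all 7 again at an unadjusted p under 0.05.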

How the data were processed

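Whole-uterus RNA of 8 females was sequenced as paired reads of about 75 bases with a Kapa mRNA kit, per the labels' protocols. The files deposited by the authors hold raw counts of reads for each Ensembl gene, as whole numbers. The submitters' processing notes name Trimmomatic, HISAT2, featureCounts, SAMtools, DESeq2 and the build GRCm38; versions, annotation and strand setting in the sources used here are not given. Total counts ran from 94794512 to 109847604 per library, so the spread between libraries, more than counting error, limited precision for the members. Each library was read as a separate female, so differences between females cannot be told apart from technical differences between libraries. Of 49585 genes, 49326 matched GENCODE M21, which gave symbols, coordinates and exon lengths.

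The main test was the robust quasi-likelihood test of edgeR 4.0.16 (R 4.3.3) with TMM scaling and treatment as the only term, two-sided. Genes with too few counts were dropped by filterByExpr (minimum count 10, minimum total 15), and the Benjamini-Hochberg adjustment ran over all 22693 genes left, with a threshold of 0.05. The biological coefficient of variation was 25.0%. CPM uses TMM-scaled library sizes, and RPKM divides it by the exon length. Log2 fold changes are DT minus PBS. Ratios and levels relative to endothelial markers were compared by exact permutation in Python 3.11.15, with 0.5 added to counts for ratios. DESeq2 1.42.0, voom (limma 3.58.1), other scalings and filters, marker covariates and omitted libraries were alternatives. The code was tested on simulated data.

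The members and gene lists were chosen with earlier results of these data known. All 10 members are named; of each pathway list the 4 genes with the smallest p, and for each member the 3 genes nearest in Pearson r, leaving out predicted models. Esm1, Pfkfb3, Slc2a1, Ldha, Klrk1, Klrd1, Tbx21, Cd3e, Cd3g, Cd3d, Trac and Pecam1 were named from their lists with values known. P-values for DT against PBS set the difference between groups against the spread of libraries within them, which may in part be technical.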

Additional observations from a re-analysis of the deposited data

Results flagged for a closer look

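Values of 1 library that stood far from the other 3 of its group were looked for in 72 groups of 4 and found in 5, where chance gives about 1 in 20. Tek was at 39.98 CPM in DT replicate 4, against 48.44 to 49.23 CPM in the other DT-labelled libraries. DT replicate 1 stood out in 3 values: Pgf over Vegfa at 0.03464 (0.02237 to 0.02278 in the other DT-labelled libraries), Vegfc over Vegfa at 0.04728 (0.02485 to 0.02748), and Angpt2 relative to endothelial markers at 1.603 log2 units (3.358 to 3.651). The embryonic globins summed to 308.1 CPM in PBS replicate 2, against 0.01889 to 40.93 CPM in the other PBS-labelled libraries.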

How the results depend on the processing

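Of 200 alternative values of the members' fold changes (20 settings, 10 members), 184 kept their direction and 16 turned, and 0 passed the threshold (lowest adjusted p 0.134). Vegfa, Angpt1, Kdr and Tek kept their direction in every setting run. Vegfc turned to -0.19 with a conceptus marker covariate, to -0.093 with an endothelial marker covariate, and to -0.18 and -0.29 without PBS replicates 1 and 2 and without DT replicate 1 as well; leaving out 1 library gave -0.086 to 0.137. Pgf turned to 0.047 with the conceptus covariate and to 0.18 and 0.14 without those libraries, Angpt2 to 0.033 with that covariate and to 0.23 without all 3 libraries, Flt1 to -0.017 and -0.032, Flt4 to 0.047, and Nrp1 to 0.029 under scaling by library totals. Of the ratios, 60 of 66 values kept their direction; without PBS replicates 1 and 2 Pgf over Vegfa turned to 0.13, Flt4 over Kdr to 0.11 and Tek over Kdr to 0.068, and without all 3 libraries Angpt2 over Angpt1 turned to 0.24, Flt4 over Kdr to 0.17 and Tek over Kdr to 0.048. Relative to endothelial markers 55 of 66 kept it; Flt1 turned to -0.024 and -0.086 and Nrp1 to -0.069 and -0.082 without those libraries (leaving out 1 library: -0.068 to 0.044 for Nrp1), Angpt2 to 0.22 without all 3, and with Pecam1, Cdh5 and Cldn5 alone Kdr turned to 0.27, Flt4 to 0.083 and Tek to 0.20. Without the 2 farthest libraries, 0 of 50 correlations passed, against 28 with all 8, and r turned for Vegfa with yolk sac markers (0.374), Pgf with yolk sac markers (-0.769) and, with decidual stroma markers, Vegfc (0.445), Pgf (-0.480), Angpt1 (0.143), Flt1 (0.287) and Flt4 (-0.006). Over the 6 libraries other than PBS replicates 1 and 2 (added after the data were seen), 0 of 50 passed, and r turned for Vegfa with endothelial (0.265), trophoblast (0.670), uterine NK cell (0.563) and yolk sac markers (0.374), and for Pgf with endothelial (-0.344), trophoblast (-0.410), decidual stroma (-0.695), uterine NK cell (-0.408) and yolk sac markers (-0.769). With 6 libraries no single relation could pass alone, since the smallest exact permutation p for r, 0.00139, adjusts to 0.0694 over 50. Both counts of 0 are therefore not comparable with the 28. The causes were not tested.

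The number of genes called over the whole table was 74 by edgeR, 338 by DESeq2, 136 with the conceptus covariate, 187 with the endothelial covariate, 1 without PBS replicates 1 and 2, and 0 to 116 with 1 library left out: 116 without DT replicate 1, 48 without PBS replicate 4, and 0 without any of the other 6 (1066 to 2047 genes at an unadjusted p under 0.05). Replicate numbers 1 and 4 occur in both groups. Deviations of same-numbered libraries correlated at -0.58 and 0.366, and those of differently numbered libraries at -0.683 to 0.63. So few pairs cannot decide whether the numbers pair the libraries, and the main test treated them as unpaired. With the replicate block, which leaves 1 residual degree of freedom, edgeR called 0 genes (280 at an unadjusted p under 0.05) and 0 members.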
